A study of Mus musculus with 32 samples.

Results

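Control peaks shared by both genotypes are regions at which micrococcal nuclease (MNase) alone gave a called peak in wild-type (WT) and in H1-TKO mouse embryonic stem cells. They number 350, of 61948 peaks in the 6 deposited MapR peak lists. They were selected on the control lists themselves: a peak of the WT control was kept where it shared at least 1 bp with a peak of the TKO control. Their presence in both controls and their fold enrichment there are therefore given as a description, with no test. The members make up 61.6% of the 568 WT control peaks and meet 349 of the 582 TKO control peaks (60%), and 4 members meet more than 1 TKO peak. The remaining control peaks, 218 of WT and 233 of TKO, were called in 1 genotype only.

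Of the 32 samples in the series, all from WT or H1-TKO cells grown in serum and LIF, 6 MapR libraries are used here. H1-TKO is the triple knockout as the labels name it, and as background the line lacks the linker histone genes Hist1h1c, Hist1h1d and Hist1h1e. In MapR, cells held on beads were exposed to a fusion of catalytically inactive RNase H with MNase (GST-RH-MNase, here RNH; 2 libraries per genotype) or to GST-MNase without the RNase H part (the control; 1 library per genotype). The labels do not say whether the 2 RNH libraries of a genotype come from separate cultures, so a p-value measures only the spread between these libraries, which may be technical. The lists give no read counts, so the depth behind a peak is not known and values carry no counting interval. Peak lists hold no expression, so the cell type could not be checked against its markers.

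MNase cuts DNA that is not protected by nucleosomes or other proteins. RNase H binds RNA-DNA hybrids, and the fusion therefore releases DNA near R-loops, in which RNA pairs with 1 DNA strand and displaces the other; the nuclease without RNase H shows where DNA is released with no such tether. Mouse chromosomes carry several kinds of DNA in many copies: TTAGGG repeats at the telomeres, major satellite around the centromere, minor satellite with the binding site of the centromere protein CENP-B (the CENP-B box) at the centromere itself, arrays of ribosomal RNA genes, and the mitochondrial genome with its nuclear insertions. The fold enrichment of a peak is the peak caller's value, given by the authors for each list separately. It is read here as enrichment over the local background, since no source used says whether a control entered the calls. Fold enrichment describes peaks within a list, and values of different lists are set side by side here.

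The members with the highest fold enrichment in both controls hold such repeated sequence: of the 10 strongest, 5 carry the telomere repeat, 2 a CENP-B box, 2 ribosomal sequence and 1 satellite array sequence. Letters are shown for members of the classes other than the telomere repeat. All are from the forward strand of GRCm38 (mm10) unless a minus sign is given, read from RefSeq's assembly. The first pair are the 100 bases around the WT control summit of members with a CENP-B box, in capitals. The box lies on opposite strands in the 2 members, so the second shows its reverse complement.
chr9:24542039-24542138: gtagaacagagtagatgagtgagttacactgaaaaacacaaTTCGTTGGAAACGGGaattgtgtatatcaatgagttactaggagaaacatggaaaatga
chr6:103649152-103649251: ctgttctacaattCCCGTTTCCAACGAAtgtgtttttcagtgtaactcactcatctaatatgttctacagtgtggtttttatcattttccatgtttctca
The next set shows 1 period of the array at the start of chromosome 9, and the summit window of a member on chromosome 13 of which the capitals aligned with that array.
chr9:3000049-3000282: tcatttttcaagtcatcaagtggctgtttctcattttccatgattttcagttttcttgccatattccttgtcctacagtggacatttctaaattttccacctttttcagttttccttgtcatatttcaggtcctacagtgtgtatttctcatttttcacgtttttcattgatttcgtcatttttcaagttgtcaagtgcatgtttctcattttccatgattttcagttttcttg
chr13:77438909-77439008: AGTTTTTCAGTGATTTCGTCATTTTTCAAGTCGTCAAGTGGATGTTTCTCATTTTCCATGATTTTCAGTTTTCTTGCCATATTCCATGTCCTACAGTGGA
A further set holds a whole member in an intron of Cntnap5b, with the bases that aligned with the Lars2 member in capitals, and the summit window of a member of which 363 of 403 bases aligned with the mitochondrial genome, again in capitals.
chr1:100180102-100180371: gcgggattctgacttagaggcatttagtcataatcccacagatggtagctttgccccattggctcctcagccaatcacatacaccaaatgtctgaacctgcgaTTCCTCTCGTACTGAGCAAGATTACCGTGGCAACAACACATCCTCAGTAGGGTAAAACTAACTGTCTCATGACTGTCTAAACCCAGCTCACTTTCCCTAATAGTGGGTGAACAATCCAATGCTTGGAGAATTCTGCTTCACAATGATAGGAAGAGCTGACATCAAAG
chr12:97061567-97061666: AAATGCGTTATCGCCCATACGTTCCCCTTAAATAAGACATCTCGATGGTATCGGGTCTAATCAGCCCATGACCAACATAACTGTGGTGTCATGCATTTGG
The last set shows 120 bases of members that belong to 3 families of near-identical sequence. In families 1 and 3 a second member on another chromosome has the same 120 letters, and for family 2 both are printed with the 3 bases that differ in capitals.
chr8:15519775-15519894: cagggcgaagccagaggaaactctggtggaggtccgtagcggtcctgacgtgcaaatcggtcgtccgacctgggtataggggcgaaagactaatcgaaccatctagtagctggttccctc
chr2:5379040-5379159: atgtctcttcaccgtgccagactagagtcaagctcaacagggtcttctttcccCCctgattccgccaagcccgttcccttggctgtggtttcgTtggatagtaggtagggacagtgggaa
chr3:5860513-5860632(-): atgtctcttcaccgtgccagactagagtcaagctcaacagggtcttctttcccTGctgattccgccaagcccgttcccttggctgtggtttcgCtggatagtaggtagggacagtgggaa
chr16:11143907-11144026: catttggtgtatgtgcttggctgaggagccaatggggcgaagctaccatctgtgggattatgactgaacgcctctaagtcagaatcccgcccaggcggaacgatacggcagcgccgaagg

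Members were sorted by sequence into 9 classes, each member counting in the first that it met. The order was a run of at least 4 TTAGGG repeats, at least 100 bases aligned with the mitochondrial genome, ribosomal sequence, CENP-B box satellite, the array of chromosome 9, a short tandem repeat (period up to 12 bases), a longer tandem repeat, other sequence with at least 50% of bases in lower case in RefSeq's masked assembly, and other unmasked sequence. The telomere repeat class was the largest with 99 of 350 members (28.3%), against 6 of 218 control peaks of WT only (2.75%) and 19 of 233 of TKO only (8.15%). In the RNH lists the same class held 0.479% of the WT RNH 1 peaks, 1.89% of WT RNH 2, 0.480% of TKO RNH 1 and 1.77% of TKO RNH 2. The array class held 30 members, the ribosomal 15, the mitochondrial 14 and the CENP-B box class 10. Among the control peaks of 1 genotype the CENP-B box class had none, and the ribosomal class had 0 of WT only and 1 of TKO only. The remaining members were short tandem repeats (12), longer tandem repeats (46), other masked (66) and other unmasked sequence (58). The other unmasked class, which takes what the earlier classes leave, made up 16.6% of the members and between 58.6% and 76.5% of the RNH lists. Its share was 36.7% of the WT-only and 30.9% of the TKO-only control peaks. Whatever their class, 57.1% of members had at least 50% of their bases masked, against 20.1% to 36.6% of the RNH peaks. The control peaks of 1 genotype were near the members in this, with 51.4% of WT only and 50.2% of TKO only.

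**Figure D1:**
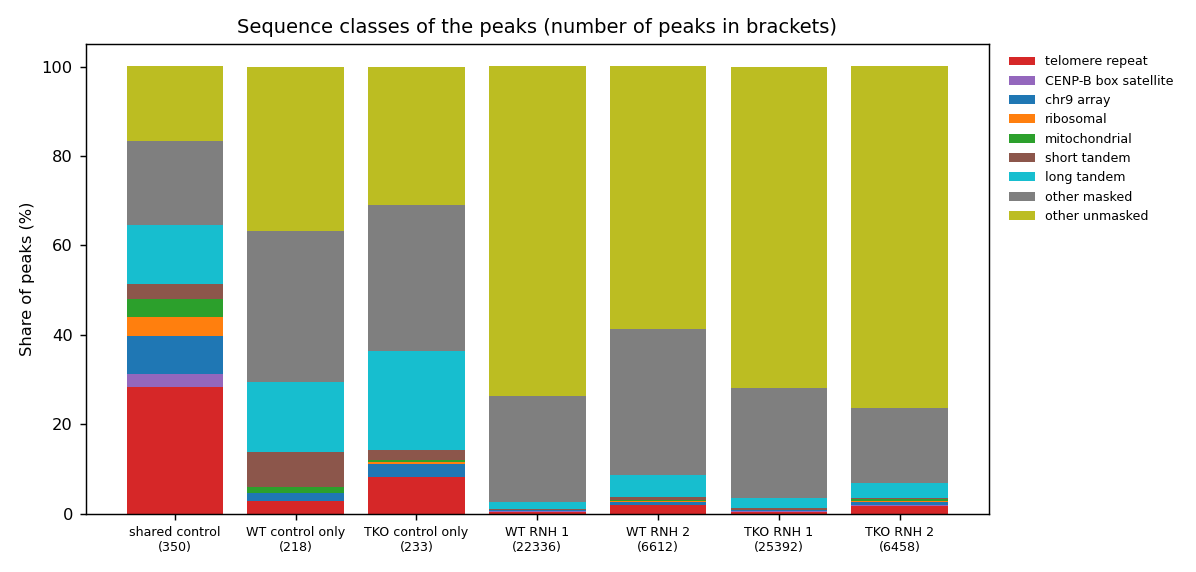
Share of peaks in each sequence class (vertical axis, %) for the shared control peaks, the control peaks of 1 genotype and the 4 RNH lists, with the number of peaks in brackets. The telomere repeat takes 28.3% of the shared control peaks and at most 1.89% of an RNH list.

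Requiring a peak in both lists favours strong peaks, and the members were stronger and wider than the control peaks of 1 genotype. Their median fold enrichment was 11.2 in the WT control (range 1.5 to 33.7) and that of the TKO peaks they meet was 11.0, while control peaks of 1 genotype had medians of 5.55 in WT and 5.37 in TKO. The highest value among the latter was 13.3 in WT and 10.8 in TKO. Median width was 324 bp for members (188 to 5147 bp) and 189 bp and 200 bp for the WT-only and TKO-only peaks. At the edge of the rule, the member with the smallest overlap (chr4:3083549-3083736) shared 33 bp with its TKO peak at fold enrichments of 4.18 and 3.61, and the nearest WT peak outside (chr1:63629989-63630213, 5.72) ended 21 bp from a TKO peak.

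The 2 control libraries placed the members at nearly the same bases. The overlap covered a median of 92.8% of the joint span, and the summits lay a median of 11.0 bp apart, with 171 of 350 pairs within 10 bp and 41 more than 100 bp apart. Across the members, fold enrichment in the WT and TKO controls had a Spearman correlation of 0.957 (n = 350 regions, which can share reads where their sequences are alike). The TKO value lay between 0.8 and 1.25 times the WT value at 283 members, the median ratio was 0.969, and TKO was the higher at 135. The 2 control libraries thus gave most members like values, and with 1 library per genotype no replicate spread is known for the exceptions.

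**Figure D2:**
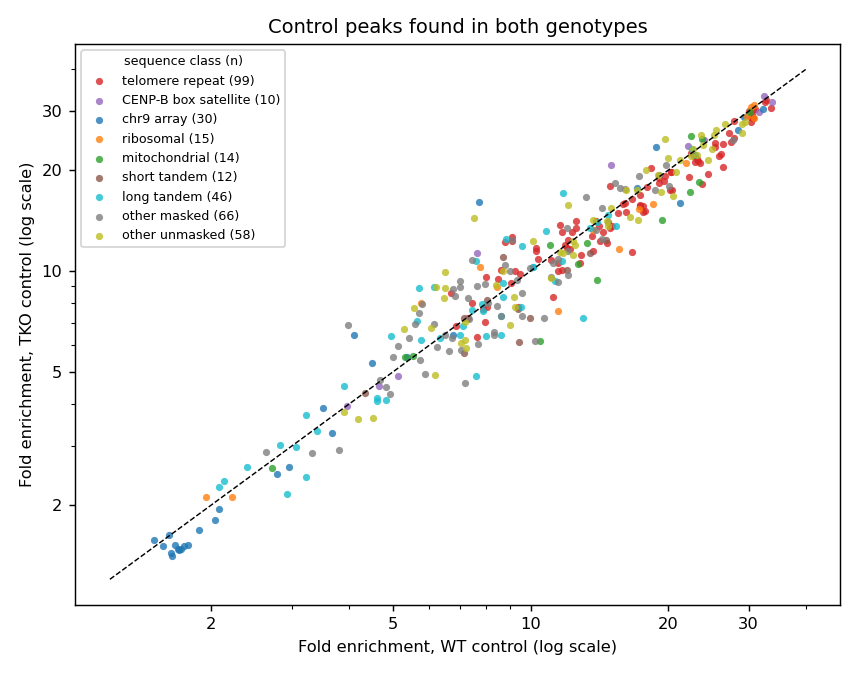
Fold enrichment of the 350 shared control peaks in the WT control (horizontal) and in the TKO control (vertical), both on log scales, 1 point per region coloured by sequence class; the dashed line marks equal values. Most points lie near the line, with array members at the low end (down to 1.5 and 1.41) and members of several classes, telomere repeat, CENP-B box and ribosomal among them, above 30 at the high end.

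The largest TKO over WT ratio was at chr16:10975016-10975204, in an intron of Litaf and aligned with the chromosome 9 array, with a fold enrichment of 7.72 in WT and 16.1 in TKO (ratio 2.09). It was followed by chr11:34681814-34682015 in an intron of Dock2 (7.51 and 14.4, ratio 1.91), chr18:3004798-3005068 (3.99 and 6.90, 1.73) and chr4:3090127-3090809 (4.10 and 6.43, 1.57). At the chr18 and chr4 members the TKO value is that of a peak whose summit lies 927 and 624 bp from the WT summit. The same TKO peaks also meet the neighbouring members chr18:3005263-3006092 (9.01 in WT) and chr4:3090923-3091160 (6.76 in WT). The chr18 and chr4 ratios therefore set different summits side by side. The smallest ratios were 0.555 at chr3:142191662-142191960 (13.0 and 7.23), 0.584 at chr10:85025980-85026355 (10.5 and 6.16), 0.603 at chr6:132463724-132463917 (10.2 and 6.16) and 0.640 at chr3:146101180-146101469, in an intron of Wdr63 (7.58 and 4.85). None of the 8 members with these largest and smallest ratios exceeded 16.1 in either control, and none was among the 10 strongest or the 10 widest members.

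Telomeres end the chromosomes in TTAGGG repeats, and shorter runs also lie inside chromosomes. The 99 telomere repeat members lay on all 21 chromosomes, 45 with TTAGGG and 54 with CCCTAA on the forward strand, 67 of them between genes and 29 in introns. The longest uninterrupted run per member had a median of 12 repeats and reached 88. The motif searched was TTAGGG at least 4 times in a row on either strand; it occurred in 0.00360% of the assembly's windows of 324 bp. Median fold enrichment was 16.1 in the WT control and 15.0 in the TKO control, against 8.04 and 12.2 in the WT RNH lists and 9.86 and 13.6 in the TKO RNH lists. Set side by side, the class medians of both controls were the higher.

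A group of 18 telomere members lay within 200 kb of the last base of their chromosome, and 81 lay elsewhere. The end group had the higher medians in every list: 29.0 against 14.2 in the WT control, 26.9 against 13.6 in the TKO control, 16.3 against 7.61 in WT RNH 1, 22.5 against 11.7 in WT RNH 2, 18.4 against 9.03 in TKO RNH 1 and 24.9 against 11.8 in TKO RNH 2. It also held more repeats, with a median of 44.0 TTAGGG units against 14.0. The ranges overlapped, from 7.95 to 33.6 in the end group and from 6.70 to 32.7 elsewhere in the WT control. Units and fold enrichment had a Spearman correlation of 0.685 in the WT and 0.75 in the TKO control over the 99 regions, which hold the same repeat and can share reads. The relation did not hold to the end of the range: the member with most units, chr14:124801498-124802265 with 114, had 18.0 in WT and 17.8 in TKO.

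**Figure D3:**
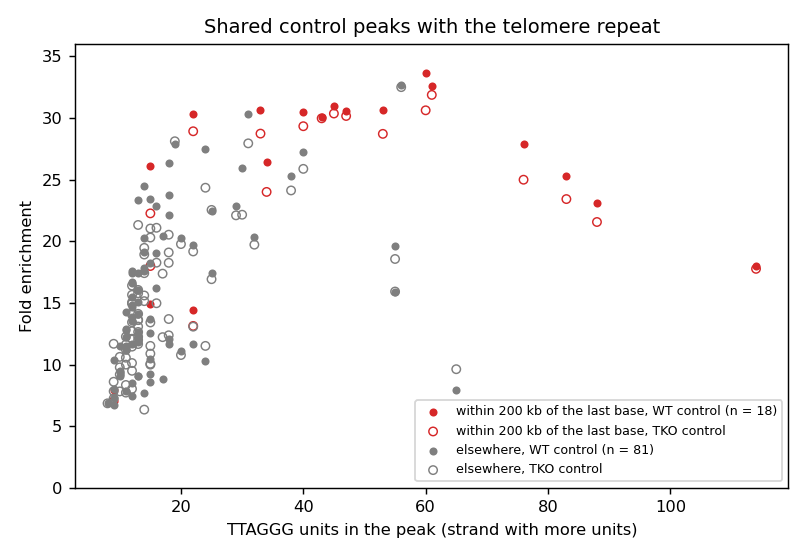
Fold enrichment (vertical) against the number of TTAGGG units (horizontal) at the 99 telomere repeat members, filled for the WT control and open for the TKO control, red within 200 kb of the last base of the chromosome. Many points climb steeply up to about 20 units. Away from chromosome ends, the member with 65 units lies low (7.97 in WT), and those with 55 units lie at 15.9 and 19.6 in WT. The 4 members with the most units fall from 27.9 to 18.0 in WT as units increase.

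The telomere members among the 10 strongest had closely similar values. At chrX:170758126-170758582, between genes and 10919 bp from Gm15069, fold enrichment was 32.7 in the WT and 32.5 in the TKO control, 18.8 and 25.7 in the WT RNH lists and 19.5 and 31.2 in the TKO RNH lists. At chrX:170880914-170881353 the control values were 33.6 and 30.6, and the RNH values 17.6, 26.4, 20.1 and 30.9 in the same order. Both X members were thus highest in a control list and lowest in WT RNH 1. At chr12:120028599-120029113, 7353 bp from Tmem196, the values were 32.6 and 31.9 in the controls and 18.7, 24.6, 19 and 30.8 in the RNH lists. chr3:159939314-159939785, 650 bp from Wls (a carrier of Wnt proteins), had 31.0 and 30.4 in the controls and 17.8, 23.6, 19.7 and 31.5 in the RNH lists. chr19:61331199-61331670 had 30.6 and 30.2 in the controls and 16.3, 23.0, 18.1 and 31.0 in the RNH lists. Of these 5, 3 had their highest value in a control list, and chr3 and chr19 exceeded the controls in TKO RNH 2 only.

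The CENP-B box class holds 10 members, of which 5 contain the box, searched as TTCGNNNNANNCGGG on both strands, and the others aligned with the strongest box member over at least 100 bases; 4 of the 10 also aligned with the chromosome 9 array. The box occurred in 0.00684% of the assembly's 324 bp windows and in 0 of the control peaks of 1 genotype. Median fold enrichment was 18.6 in the WT and 22.2 in the TKO control and 13.2, 18.1, 15.6 and 21.8 in WT RNH 1, WT RNH 2, TKO RNH 1 and TKO RNH 2. The strongest member, chr6:103648966-103649407 in an intron of Chl1 (a neural cell adhesion molecule), had 33.7 and 32.0 in the controls and 19, 26.0, 20.2 and 32.6 in the RNH lists. chr9:24541926-24542263, between genes, had 32.5 and 33.3 in the controls and 15.9, 22.2, 18.6 and 32.4 in the RNH lists. At the low end, 3 members of the class lay in a stretch of chromosome 2 that holds Gm10800 and Gm10801, where the 3 WT control values were 4.66, 3.97 and 5.12. The class therefore spans both ends of the list.

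The array at the start of chromosome 9 repeats with a period of 234 bases: over its first member, 83.6% of bases recurred 1 period on. Major satellite is known for a unit of this length. Of the 30 members that aligned with it, 16 lay within a stretch of 38197 bp (chr9:3000049-3038245) annotated with predicted genes such as Gm10722, Gm10717 and Gm17535, and these had low fold enrichment, 1.5 to 2.96 in WT and 1.41 to 2.59 in TKO; the member of lowest value in each control was among them. By contrast, 7 members of the class had at least 17.1 in WT, and the next highest was 7.72. Among the 7 was chr13:77438787-77439132, in an intron of 2210408I21Rik, with 32.2 and 30.5 in the controls and 16.8, 22.6, 17.1 and 28.1 in the RNH lists. At chr12:3109760-3110211 the control values were 29.3 and 28.8, and at chr9:35305157-35305700 they were 28.5 and 26.3. The same sequence type thus gave the weakest member, inside the array, and 1 of the 10 strongest, outside it. Fold enrichment is read here as relative to the local background, whose part in this was not tested.

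The ribosomal class was drawn from 2 stretches: an annotated ribosomal RNA locus of chromosome 17 (Gm26917, CT010467.1) and a member in an annotated UTR of Lars2, the mitochondrial leucyl-tRNA synthetase, which is known for a stretch that resembles 28S ribosomal RNA. The locus itself held the widest member, chr17:39843106-39848252 (5147 bp), with 2.22 in the WT control, 2.12 in the TKO control and between 1.87 and 2.00 in the RNH lists. The Lars2 member, chr9:123461809-123462183, had 30.9 and 31.3 in the controls and 18.9, 26.3, 22.4 and 30.1 in the RNH lists. The Cntnap5b member printed above had 30.3 and 31.0 in the controls, and 18.9, 25.7, 21.9 and 35.0 in the RNH lists; 35.0 is the highest value in the whole TKO RNH 2 list. Close to these were chr12:78350837-78351163 in an intron of Gphn (30.8 and 28.7) and chr17:70963599-70963899 in an intron of Gm26561 (29.8 and 29.0). All 15 members of the class met a peak in all 4 RNH lists, and the class median was 15.6 and 13.3 in the controls and 10.1, 13.7, 11.8 and 18.3 in the RNH lists.

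Of the 58 other unmasked members, 35 fell into 9 families whose members aligned with each other at 90% identity or more over at least 100 bases. Family 1 had 11 members on 9 chromosomes, each with 11 to 17 alignments in the assembly, its own place included; family 2 had 6 members on 5 chromosomes and family 3 had 4, on 4 chromosomes and each over a gene annotated as a microRNA (Gm23935, Gm24270, Gm24187, Gm25911). Some members of families 1 to 3 also aligned with members of the ribosomal class: 2 of family 3 (chr16:11143876-11144315 and chr9:56223577-56223994) aligned with the Gm26561 member over 145 and 148 bases at 98.6% and 98.0% identity. The assembly tables used here hold no complete 28S gene, so whether all of these families are ribosomal was not tested. These families count as other unmasked. The ribosomal class of 15 took only members that matched the 2 stretches it was drawn from, so the number of members with ribosomal sequence may be higher. Fold enrichment within family 1 ran from 6.50 to 26.7 in the WT control (median 19.3) and from 8.87 to 27.5 in the TKO control (median 19.3). The RNH medians of family 1 were 15.6 and 22 in WT and 16.6 and 22.9 in TKO, so the controls lay between replicate 1 and replicate 2 of both genotypes.

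Within family 1 the levels differed between near-identical copies. chr8:15519749-15520117, between genes, had 26.7 and 27.5 in the controls and 18.8, 26.0, 22 and 28.1 in the RNH lists. chr2:20899806-20900201 in an intron of Arhgap21 had 22.5 and 22 in the controls. chr12:99645465-99645670 in an intron of Gm19951 had 12.4 and 12.3, and chr15:47539939-47540126 had 6.50 and 8.87. The order of these 4 was the same in both controls. Of the 23 unmasked members in no family, 16 had at most 1 alignment in the assembly; the strongest of the 23 by the smaller of its control values, chr6:103314479-103314830, had 29.0 and 27.5 in the controls and 12, 18.7, 15.4 and 22.9 in the RNH lists.

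Copies of mitochondrial DNA in the nuclear genome are called nuclear mitochondrial insertions. The 14 mitochondrial members had medians of 13.6 and 12.1 in the controls and 9.22, 13.6, 13.1 and 17.3 in the RNH lists, and all 14 met a peak in all 4 RNH lists. The strongest by both controls was chr12:97061430-97061832, with 30.2 and 29.9 in the controls and 21.8, 27.9, 23.0 and 29.7 in the RNH lists. Its value of 21.8 and that of 27.9 are the highest of the whole WT RNH 1 and WT RNH 2 lists. The largest insertion, chr1:24611647-24616071 (4425 bp, over Gm28439, Gm10222 and other mitochondrial-like genes), lay between 2.57 and 2.72 in all 6 lists. Members at chr2:22588441-22590433 in Myo3a (5.30 and 5.52) and chr4:80002873-80005136 (5.54 and 5.57) were also wide and even, at 5.03 to 5.30 and 5.39 to 5.86 in the RNH lists. These 3 wide insertions had low values that varied little between lists.

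The 46 longer tandem repeats had medians of 7.58 and 7.27 in the controls and 6.64, 7.19, 6.29 and 7.41 in the RNH lists, and the 12 short ones 9.41 and 7.96 in the controls and 5.76, 7.07, 7.74 and 6.51 in the RNH lists. The strongest was chr5:36630427-36630771, a repeat of period 33 in an intron of D5Ertd579e, with 22.6 and 23.1 in the controls and 14.0, 20.3, 14.4 and 25.6 in the RNH lists. Several of the widest members were of this kind: chr13:74528586-74530246 (7.84 and 7.96), chr9:124256333-124257960 (8.72 and 8.37), chr4:118547200-118548739 (10.1 and 10.3) and chr10:3112435-3113934 (2.39 and 2.59). Of the 66 other masked members, the strongest was chr17:13305907-13306302 with 27.8 and 24.6 in the controls. The wide member chr14:19415725-19419527 over Gm21738 was of the array class and had 3.68 and 3.29, and chr15:75085521-75087038 of the masked class had 11.1 and 9.57.

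The members share features that the rule did not use. The fraction within 10 kb of an assembly gap was 16.3%, against 2.29% of WT-only and 4.29% of TKO-only control peaks and between 0.543% and 1.53% of the RNH lists. Median GC content was 46.0%, close to the 47.9% of both the WT-only and the TKO-only control peaks, against 56.9% to 61.1% in the RNH lists. A further alignment in the assembly at 90% identity over 50% of the peak was found for 211 of 350 members (60.3%), for 56.4% and 69.1% of the WT-only and TKO-only peaks, and for 22.5% to 40.5% of 600 peaks sampled from each RNH list. By annotation 200 members lay between genes, 112 in introns, 19 in coding exons, 15 in non-coding exons and 4 in UTRs. Only 49 members (14.0%) lay within 1 kb of an annotated transcription start, against 8.26% and 9.87% of the control peaks of 1 genotype and 39.9% to 50.7% of the RNH lists. The array class held 18 of these 49.

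Most members recurred in the RNH libraries, which the rule did not use. WT RNH 1 had a peak at 314 members (89.7%), WT RNH 2 at 330 (94.3%), TKO RNH 1 at 334 (95.4%) and TKO RNH 2 at 331 (94.6%). Over all 568 WT control peaks the shares were 61.4%, 65.1%, 67.4% and 64.6%, and over those of WT only 16.1%, 18.3%, 22.5% and 16.5%. The control peaks of TKO only were met in 38.6%, 40.8%, 45.9% and 33.5% of cases. The TKO mean share over members was 3.00 percentage points above that of WT, and both TKO libraries exceeded both WT libraries (2-sided exact permutation test of 2 against 2 libraries, p = 0.333, the smallest the design allows). The difference rested largely on WT RNH 1, without which it was 0.714 points. Peaks in all 4 RNH lists were found at 307 members, in 3 at 17, in 2 at 12, in 1 at 6 and in none at 8.

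The 8 members met in no RNH list were weak or intermediate in the controls. They included chr1:44951103-44951404 between genes (9.45 and 6.13) and chr16:96903267-96903463 in an intron of Dscam (7.15 and 7.24), both short tandem repeats. Others were chr10:61373911-61374223 in an intron of Pald1 (9.57 and 7.33) and chr3:122308402-122308638 in an intron of Bcar3, with 4.99 and 5.55. The Bcar3 member had the lowest −log10 q of all members in the WT control, 2.96. The other members of lowest −log10 q in either control were chr12:4220128-4220319 in Cenpo (4.03 and 3.62 as −log10 q in the WT and TKO controls), chr3:146101180-146101469 in Wdr63 (7.85 and 3.63), chr2:122681702-122681976 in a UTR of Slc30a4 (3.80 and 11.9) and chrX:44197813-44198015 (3.80 and 9.28).

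Members made up 1.35% of the peaks of WT RNH 1, 4.89% of WT RNH 2, 1.26% of TKO RNH 1 and 5.2% of TKO RNH 2, but almost all of the strongest. The 50 peaks of highest fold enrichment in each of the 4 RNH lists all met a member. Of the top 100 peaks, 98 met a member in WT RNH 1 and 100 in each of the other 3 lists; of the top 500, 193, 252, 210 and 253 did. The highest peaks that met no control peak of either genotype had 11.3, 11.3, 10.6 and 12.4, while the lists' maxima were 21.8, 27.9, 23.0 and 35.0. Among the top 100, telomere repeat peaks numbered 33, 37, 35 and 38 and other unmasked peaks 29, 29, 28 and 27 in the same order.

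**Figure D4:**
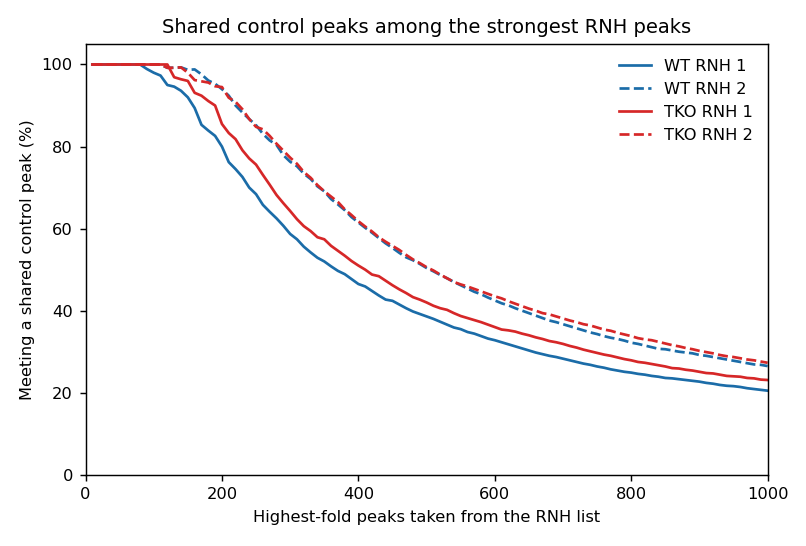
Share of the strongest RNH peaks that meet a shared control peak (vertical, %) against the number of peaks taken in order of fold enrichment (horizontal), blue for WT and red for TKO, dashed for replicate 2. All 4 curves stay at 100% to at least 50 peaks and fall below 30% by 1000 peaks.

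Set beside its control, the RNH value of a member was usually the lower. Of all 350 members, 41 (11.7%) had a higher fold enrichment in WT RNH 1 than in the WT control, 88 (25.1%) in WT RNH 2, 60 (17.1%) in TKO RNH 1 and 142 (40.6%) in TKO RNH 2 than in the TKO control. Over all control peaks of the genotype the shares were 9.33%, 17.8%, 16.3% and 30.4%, where control peaks with no RNH peak count as not higher. Among members with a peak in the list the shares were 13.1%, 26.7%, 18.0% and 42.9%. Of all WT control peaks with a peak in WT RNH 1, 53 of 349 were higher there, and 101 of 370 in WT RNH 2, so in WT the members' excess over all control peaks was not seen among peaks that were met. All TKO control peaks with a peak in a TKO RNH list were not counted. An excess of members can therefore not be read from the TKO shares. Median values at members were 7.59 and 10.4 in WT and 8.31 and 11.1 in TKO. Replicate 2 exceeded replicate 1 at 274 of 310 members with both in WT and at 271 of 323 in TKO, and the medians of the 2 replicates lay further apart than those of the genotypes at the same replicate number. The lists were called separately and their depths are not known, and the part of either in these differences was not tested. The rule chose members by their control peaks and so favours high control values in this comparison. The part of the rule was not tested either.

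**Figure D5:**
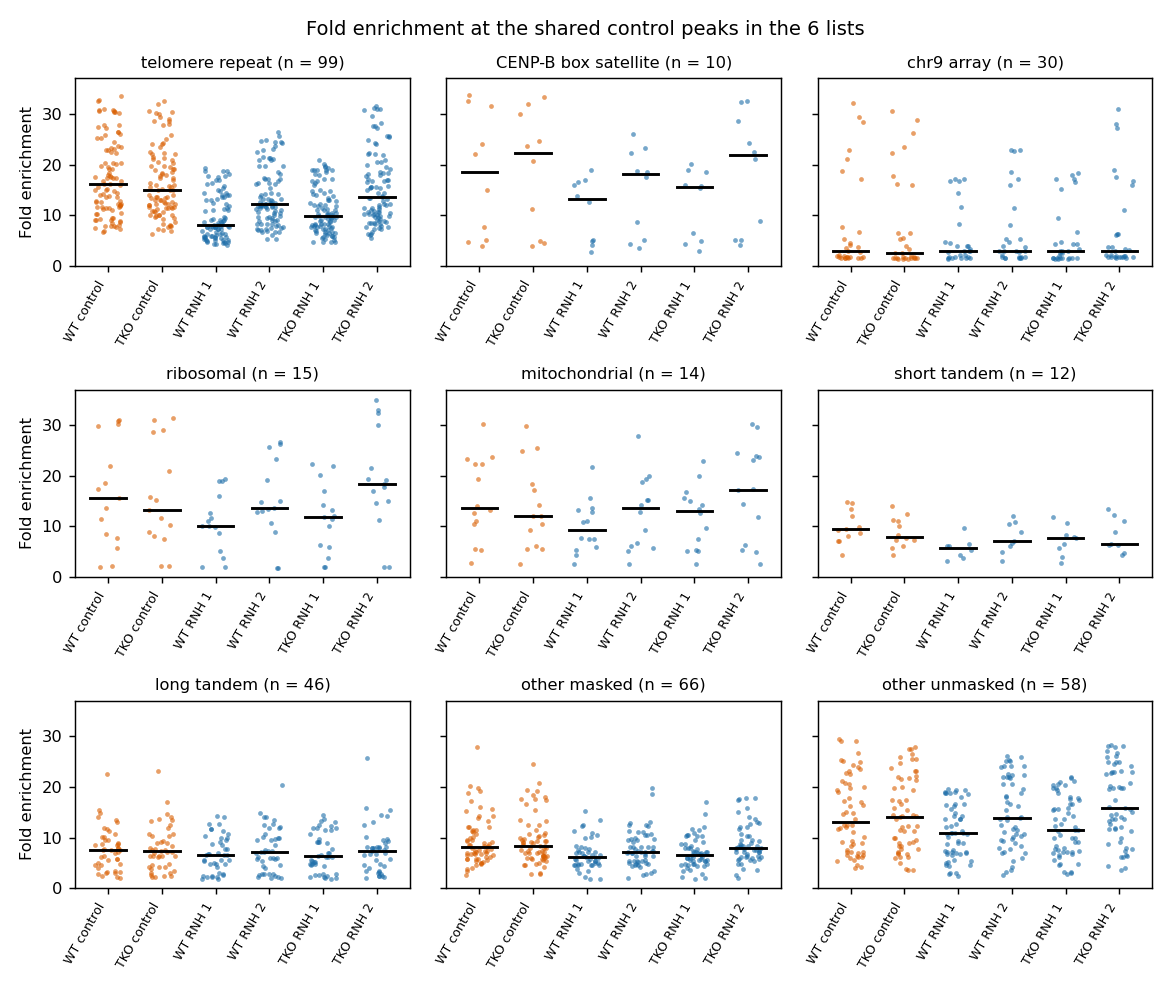
Fold enrichment (vertical) at the members of each sequence class in the 2 control lists (orange) and the 4 RNH lists (blue), 1 point per region with a peak and a bar at the median. Within the telomere class the medians of the controls (16.1 and 15.0) lie above those of the RNH lists, while the array class has medians between 2.53 and 3.02.

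The relation of RNH to control differed by class. In the telomere class the RNH value was above the control at 1 of 92 members in WT RNH 1, 8 of 97 in WT RNH 2, 1 of 97 in TKO RNH 1 and 19 of 97 in TKO RNH 2, and 76 of 99 members were above in none of the 4. In the unmasked class the counts were 6 of 57, 28 of 56, 10 of 57 and 44 of 57, and in the array class 8 of 28, 10 of 28, 15 of 30 and 21 of 30. Over all members, 168 were above the control in no RNH list and 16 in all 4. Of these 16, 5 lay in the array of chromosome 9, where the control values were below 3, and none held the telomere repeat. An RNH peak that met several members gave its value to each. The array members chr4:3089630-3090067, chr4:3090127-3090809 and chr4:3090923-3091160 all had 3.89 in WT RNH 1 and 4.42 in TKO RNH 1. Masked member chr13:74530386-74530687 (4.67 and 4.74 in the controls) had 6.96, 7.24 and 6.58 in WT RNH 1, WT RNH 2 and TKO RNH 1, as did its neighbour chr13:74528586-74530246. The part of such sharing in these counts was not tested.

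The largest ratios of the mean RNH value to the mean control value were at ribosomal members. chr17:22877761-22878102, between genes, had 5.76 and 8.03 in the controls and 11.7, 13.4, 13.2 and 11.3 in the RNH lists (ratio 1.80). chr8:3754416-3754609, 5432 bp from Cd209a, had 7.76 and 10.3 against 11.1, 19.1, 14.2 and 17.8 (1.72). At both, all 4 RNH values exceeded both controls. Next came chr9:3001677-3001865 in the array (1.63), chr15:47539939-47540126 of family 1 (1.54), chr14:19278024-19278432 of family 6 in an intron of Gm48099 (1.43) and chr2:88247327-88247547 (1.37). The family 1 member had 6.50 and 8.87 in the controls and 5.08, 13.8, 7.94 and 20.7 in the RNH lists. It was thus above its control in replicate 2 only, in both genotypes. chr14:19278024-19278432 had 6.48 and 9.95 in the controls and 11.0, 12.1, 12.3 and 11.8 in the RNH lists.

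Among the smallest ratios were those of masked members and 1 telomere member. chr1:93294623-93294924 in an intron of Sned1 had 19.8 and 20.7 against 6.33, 10.6, 8.03 and 13.0 (0.469). chr16:93789070-93789406, the telomere member in an intron of Dop1b, had 25.9 and 22.1 against 7.62, 12.5, 9.01 and 18.0 (0.490). At both no RNH value reached either control. Also low were chr13:26990103-26990298 (0.482, with a peak in 2 RNH lists), chr13:5141351-5141582 (0.526) and chr12:25861859-25862047 (0.534).

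Of the 197 genes in the 10 lists examined, 3 had a member within 1 kb of an annotated start. Gm26917 and Gm42418 lie at the chromosome 17 locus described above. Rn7s2, a gene of the 7SL RNA of the signal recognition particle, had the member chr12:69361208-69361395, with 6.45 and 8.31 in the controls and 6.51, 9.34, 4.68 and 6.18 in the RNH lists. No member lay near a start of the 26 pluripotency, 9 linker histone H1, 26 core histone, 22 imprinted, 17 R-loop processing or 24 ribosomal protein and housekeeping genes. The 4 RNH lists had peaks near the starts of 1 to 15, 1 to 5, 5 to 25, 3 to 13, 4 to 14 and 4 to 15 genes of these lists, the most in replicate 1 of either genotype. The RNH lists hold 6458 to 25392 peaks, while only 49 of the 350 members lay within 1 kb of any start. With so few members near starts, their absence from these gene groups cannot be read as a trait of the groups.

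Chromatin-retained RNA (cheRNA) was listed by the authors' deposited table only for transcripts that differed between genotypes, with no value per sample. The direction of its log2 values is not stated, and every value given here from the authors' deposited table has its sign reversed. With that reversal the 3 listed transcripts of the deleted H1 genes are lower in TKO, and the reading as TKO over WT is an inference from them. In the authors' deposited table, 36 of 5723 transcripts overlapped 34 of the 350 members, and 11 of the 218 WT-only control peaks lay over a listed transcript. With the sign reversed, 23 of the 36 in the authors' deposited table were higher and 13 lower in TKO, and 39.9% of all listed transcripts were lower. With the sign reversed, the largest values over members in the authors' deposited table were a log2 of 4.18 within Apool, 4.16 for Sfi1 and 3.93 for an intergenic transcript named after Gdi2. The member in Apool, chrX:112370756-112371223, had 17.9 and 20.0 in the controls and 14.9, 18.2, 18.0 and 17.5 in the RNH lists. The Sfi1 member, chr11:3168729-3169002, had 2.93 and 2.16, and the member under the Gdi2 transcript, chr13:3372775-3373716, had 11.6 and 11.4. This last member belongs to family 4, as does chr10:22142294-22143123 in an intron of E030030I06Rik (14.8 and 13.6), whose transcript has a log2 of 2.30 in the authors' deposited table after the reversal. Further listed transcripts lay over chr15:75085521-75087038 (3.20), chr18:3005263-3006092 (3.18), chr18:3004798-3005068 (2.62) and chr17:3081752-3082814 (2.54), all higher in TKO, and over chr6:56233545-56233870 in Pde1c (-2.16) and chr18:50650315-50650506 (-2.11), both lower, again from the authors' deposited table with the sign reversed.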

How the data were processed

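The 6 MapR libraries were sequenced from genomic DNA fragments of mouse embryonic stem cells, and per the submitters' processing notes BWA and MACS2 were used with the build mm10; no source used here gives their versions or options, or says whether a control entered the calls. Each list deposited by the authors holds, per peak, the fold enrichment (a ratio), −log10 p and −log10 q, and a score. The authors' deposited table of cheRNA transcripts holds a log2 fold change, whose sign was reversed here. The members, gene lists and tests were chosen with earlier results of these data known, and the sequence classes after the data had been seen.

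Where several peaks of a list met a member, the one of highest fold enrichment was taken. A peak that met several members gave its value to each. Sequence and masking came from RefSeq's GRCm38.p6, the assembly that mm10 is made from, and genes from GENCODE M21. Peaks were aligned to reference stretches by blastn 2.17.0 (E-value up to 1e-08) and to the assembly by minimap2 2.31 (at most 100 further alignments kept). Ribosomal sequence meant 100 aligned bases of the chromosome 17 ribosomal locus or 50 of the Lars2 member; a tandem repeat meant that 75% of bases in the 200 bases around the summit recurred at a period of up to 100. Gaps are runs of at least 1000 N. Each RNH list was sampled at 600 peaks for copies. Genotypes were compared by an exact permutation test over libraries; overlap, test and tandem measure were tested on simulated data. Members named are the 10 strongest by the smaller control value, the 6 largest and 6 smallest ratios of RNH to control, the 4 largest and 4 smallest ratios of TKO to WT control, the 5 of lowest −log10 q in either control, the 10 widest, those over the 10 largest listed transcripts, and those at starts of listed genes; the other named members, among them further family, class and unmet members, were chosen after their values were seen. An item among the named members and some sequences are not reported here.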

Additional observations from a re-analysis of the deposited data

Results flagged for a closer look

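At 6 of the named members both RNH libraries of 1 genotype lay above that genotype's control and both of the other lay below theirs. The value given is the log2 of the TKO ratio of mean RNH to control fold enrichment over the WT ratio; with 1 control per genotype the difference was not tested. It was 0.77 at chr10:85025980-85026355 (ratios 0.658 in WT and 1.12 in TKO), 0.50 at chr11:3168729-3169002 in Sfi1 (0.809 and 1.14), 0.43 at chr18:3005263-3006092 (0.789 and 1.06) and 0.10 at chr1:24611647-24616071 (0.962 and 1.03). The chr10 member was named for its small TKO over WT control ratio (control values 10.5 and 6.16), and its RNH values were alike, 7.65 and 6.23 in WT and 7.50 and 6.36 in TKO, so its value restates that control ratio. The RNH values were also alike at the Sfi1 member (2.36 to 2.54, controls 2.93 and 2.16). The same was seen at chr18:3005263-3006092 (7.06 to 7.39, controls 9.01 and 6.90) and chr1:24611647-24616071 (2.57 to 2.68, controls 2.72 and 2.58). Their values too rest mostly on the single controls. The log2 value was -0.91 at chr12:69361208-69361395, the Rn7s2 member (1.23 and 0.653), and -0.11 at chr4:80002873-80005136 (1.05 and 0.971). At the Rn7s2 and chr4 members both WT RNH values were above both TKO RNH values. Over all 350 members 23 had this pattern, 16 above the control in TKO only and 7 in WT only.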

How the results depend on the processing

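The number of members was between 336 and 350 under the 4 other overlap and threshold settings. With a member counted as higher in an RNH list only at 1.5 times its control, the shares dropped to 1.71% in WT RNH 1, 2.57% in WT RNH 2, 1.14% in TKO RNH 1 and 4.57% in TKO RNH 2. The share near a start was 10.0% within 500 bp and 8.00% for protein-coding genes, and the share with a copy 32.0% at 95% identity over 80% of the peak. At that setting members lay below the WT-only (40.4%) and TKO-only (53.6%) control peaks and above the sampled RNH peaks (14.5% to 28.8%). The share met by RNH peaks was 2.86 to 4.71 points higher in TKO under the other settings (exact permutation p = 0.667 each) and 0.714 to 5.29 points when 1 RNH library was left out; the lowest value is that without WT RNH 1. With the replicate number as a block the difference was 3.00 points (exact sign-flip p = 0.500), a pairing by number only, whose basis in shared cultures the labels do not give. Settings chosen after seeing the data gave 101 telomere members at 2 repeats and 93 at 8, and 61 in place of 92 members with a tandem period at an identity of 0.85. No alternative was run for the cheRNA count. Control and RNH lists were called separately with unknown depth, so folds of different lists are values side by side, with no test. Near-identical copies can share reads and are not replicates.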
